A study of Mus musculus with 7 samples.

Results

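The genes described here are the muscle atrophy ubiquitin ligases and the FoxO transcription factors, a set of 8 named genes: Fbxo32, Trim63, Fbxo30, Fbxo31, Foxo1, Foxo3, Foxo4 and Mstn. Every probe set (a group of short probes on the array that together report 1 transcript) whose only annotated symbol was one of these names was taken, which gave 11 of 22626 probe sets and covered 5 of the 8 genes. Fbxo32 had 2 probe sets, Foxo1 had 4, Foxo3 had 3, and Foxo4 and Fbxo31 had 1 each. Trim63, Fbxo30 and Mstn were not analysed here, because the annotation used paired none of the probe sets with them. The question was how these genes differ between fasted hearts with and without Krüppel-like factor 15 (KLF15), a DNA-binding protein of the zinc-finger class.

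RNA came from hearts of male C57/BL6 mice, 3 to 4 months old and fasted for 18 h. Wild-type (WT) mice gave 4 Affymetrix arrays, and mice null for the Klf15 gene (KLF15-null) gave 3. All 7 arrays came from fasted animals, so no value here separates the response to fasting from the fed state. The labels do not say how the null allele was made, nor that the arrays of a group came from separate animals, so p-values measure the spread between arrays.

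Fbxo32 codes for atrogin-1 (also called MAFbx), the F-box subunit that brings substrates to an SCF ubiquitin ligase in cardiac and skeletal muscle. FoxO factors are transcription factors that insulin signalling keeps out of the nucleus through phosphorylation by AKT. When insulin falls, as in fasting, they enter the nucleus and raise Fbxo32, Trim63 (MuRF1) and autophagy genes, which is the textbook route to muscle protein loss. Fbxo30 and Fbxo31 code for further F-box proteins, and Mstn codes for myostatin, a secreted inhibitor of muscle growth. KLF15 is known in skeletal muscle as a glucocorticoid-induced factor that takes part in raising both Fbxo32 and Trim63.

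The arrays had medians between 6.22 and 6.33 on the log2 scale, and their 98th percentiles lay between 11.43 and 11.74 in WT and between 11.86 and 12.02 in KLF15-null hearts. Over the tested probe sets Pearson's r was 0.991 to 0.994 among WT arrays and 0.972 to 0.988 among KLF15-null arrays, where array 2 was the one farthest from the other two at 46.6% of the probe sets. Klf15 itself, on its single probe set, read 8.68, 8.98, 8.73 and 9.08 on the WT arrays and 6.52, 6.23 and 6.23 on the KLF15-null arrays. The difference was -2.54 (SE 0.13, adjusted p = 1.26e-06 by limma), and an exact two-sided permutation test over the 35 possible regroupings gave p = 0.0286, the smallest it can give. The labels do not say which part of Klf15 is deleted, so this probe set may or may not lie in it.

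Of the 5 genes measured, Fbxo32 had the smallest adjusted p: it fell in KLF15-null hearts on both of its probe sets, 3.19-fold on the brighter one and 1.71-fold on the other. The FoxO genes did not give 1 direction. Foxo1 fell 1.69-fold on 1 probe set and did not pass the test on its brightest, and Foxo3 rose 1.63-fold on its brightest probe set and did not pass on the next. Neither Foxo4 nor Fbxo31 passed the test. Probe sets were tested where their mean over the 7 arrays reached log2 5.74, the 40th percentile, which left 13576 in all and 9 of the 11 described here. The test was limma's moderated linear model with Benjamini-Hochberg adjustment over all 13576 and a threshold of 0.05, and a probe set past it is called higher or lower. Of the 9 tested probe sets 3 were lower and 1 was higher, with 5 not past the threshold. Over all tested probe sets 50.6% were called, 23.8% lower and 26.8% higher, so 4 calls among 9 is near the background share. The 3 KLF15-null values lay outside the range of the 4 WT values for 5 of the 9, against 53.0% of all tested probe sets. The median difference (KLF15-null minus WT, as throughout) of the 9 was -0.21, beside 0.00 over all tested probe sets.

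**Figure D1:**
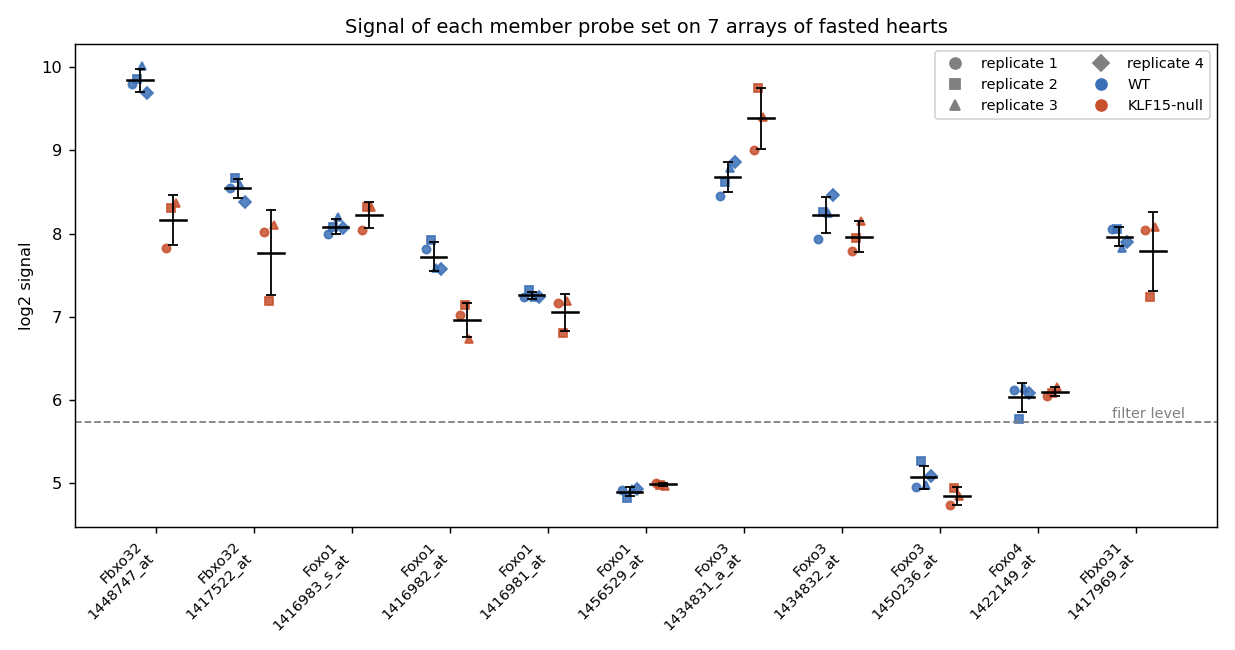
Log2 signal (vertical axis) of each of the 11 probe sets on the 7 arrays, with 1 point per array, marker shape by replicate number and colour by genotype. Horizontal bars are group means, whiskers are 1 SD (n = 4 WT, n = 3 KLF15-null) and the dashed line is the filter level of 5.74. Both Fbxo32 probe sets and Foxo1 1416982_at are lower in all 3 KLF15-null hearts, and Foxo3 1434831_a_at is higher in all 3.

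The brighter Fbxo32 probe set, 1448747_at, read 9.80, 9.86, 10.01 and 9.69 in WT hearts and 7.82, 8.31 and 8.37 in KLF15-null hearts. All 3 KLF15-null arrays lay more than 1 log2 unit below the lowest WT array, with the lowest reading on KLF15-null array 1. The means were 9.84 ± 0.14 (SD, n = 4) and 8.17 ± 0.30 (SD, n = 3), a difference of -1.67 (SE 0.15, adjusted p = 2.09e-05 by limma). Only 2.03% of all tested probe sets had a more negative difference. Over single arrays left out in turn the difference stayed between -1.77 and -1.5, past the threshold each time.

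The second Fbxo32 probe set, 1417522_at, read 8.55, 8.66, 8.58 and 8.38 in WT hearts and 8.02, 7.19 and 8.11 in KLF15-null hearts. The groups did not overlap here either, but KLF15-null array 2 lay well below the other two. The difference was -0.77 (SE 0.20, adjusted p = 0.0104), and 10.3% of tested probe sets had a more negative one. Without KLF15-null array 2 it was -0.48 (adjusted p = 0.00417) and still past the threshold. The annotation gives both probe sets the same source transcript, yet they reported the loss to different degrees. Within an array, 1448747_at exceeded 1417522_at by 1.19 to 1.44 in WT hearts and by -0.19 to 1.12 in KLF15-null hearts, a change in that gap of -0.90. An exact two-sided permutation test of the gap gave p = 0.0286, the smallest possible, and 0.0476 after adjustment over the 5 such pairs among these genes.

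Hearts hold several cell types, and in such samples fewer cells of a type cannot be told apart from less RNA per cell. Fbxo32 is known as a muscle gene, so cardiomyocyte markers bear on it. Of 8 markers 1 was higher on the deposited scale (Nppa, the atrial natriuretic peptide gene, at 1.71). None was lower on that scale and 7 did not pass the test. The log2 of their summed signal lay between 16.41 and 16.59 in WT and between 16.55 and 16.72 in KLF15-null hearts, so the groups overlapped. All 8 probe sets lay near the top of the signal range, at percentile 97.8 or above. The calls changed with the scaling of the arrays. After cyclic loess normalization Myh6, Myl2 and Tnni3 were called lower, at -0.32, -0.43 and -0.26 (adjusted p by limma of 0.0107 or less). After median centring Myh6 and Tnni3 were called higher, at 0.30 and 0.32 (adjusted p = 0.0167 and 0.0255). The other markers were not followed under those scalings. The part of cardiomyocyte content in the Fbxo32 result was not tested. Of 12 skeletal muscle markers 6 were bright enough to test and 0 were called in either direction by limma, with 0 of the 6 at an unadjusted p under 0.05. Their summed log2 signal ranged from 10.34 to 11.35 in WT and from 10.40 to 11.71 in KLF15-null hearts.

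The FoxO factors themselves were read by 8 probe sets, 6 of them bright enough to test. On Foxo1 and Foxo3 some tested probe sets were called and some were not. Their upstream sequence is shown because KLF15 is a DNA-binding factor that is known to recognise GC-rich and CACCC elements. The 250 bases before the annotated start, from RefSeq on build GRCm38.p6, are given 5′ to 3′ on the gene's strand. Foxo1 lies at chr3:52268087-52268336 on the plus strand and Foxo3 at chr10:42276696-42276945 on the minus strand. Capitals mark the GC box CCGCCC on either strand.

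Foxo1: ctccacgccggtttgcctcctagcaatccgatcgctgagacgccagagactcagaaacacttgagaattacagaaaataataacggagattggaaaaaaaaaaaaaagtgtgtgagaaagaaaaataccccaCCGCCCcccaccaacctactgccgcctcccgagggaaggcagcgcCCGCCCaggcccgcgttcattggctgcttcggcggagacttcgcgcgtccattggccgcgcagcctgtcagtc

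Foxo3: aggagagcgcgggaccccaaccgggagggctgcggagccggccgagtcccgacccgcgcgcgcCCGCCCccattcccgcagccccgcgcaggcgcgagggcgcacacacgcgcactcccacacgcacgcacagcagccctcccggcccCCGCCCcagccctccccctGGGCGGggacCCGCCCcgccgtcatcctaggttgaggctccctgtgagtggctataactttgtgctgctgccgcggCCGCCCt

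The GC box occurred 2 times upstream of Foxo1 and 5 times upstream of Foxo3, and 32.7% of all 32851 promoter windows of this length hold at least 1. That share does not tell how many windows hold several. G and C made up 56% of the Foxo1 window and 76.4% of the Foxo3 window, and windows of like content were not compared. Neither window held the CACCC box, found in 52.0% of windows, or the FoxO core TGTTTAC, found in 3.17%, searched on both strands. The shorter TGTTT, which lies inside the core, occurred 1 time upstream of Foxo1 and was in 46.4% of windows. These are matches of letters only, and no binding was measured here. RefSeq windows were found for 6 of the 8 genes, Fbxo32 and Foxo4 being the others. The Fbxo31 window, 68% G and C, held the CACCC box 4 times and the GC box 4 times. The Fbxo30 window, 80.4% G and C, held the GC box 4 times. The Trim63 window held the FoxO core 1 time, and the Mstn window held none of these.

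Foxo1, the FoxO factor best known for the insulin response of liver and for endothelial growth control, fell on 1 of its 3 tested probe sets, 1416982_at. It read 7.81, 7.92, 7.58 and 7.57 in WT hearts and 7.01, 7.14 and 6.73 in KLF15-null hearts, with no overlap. The difference was -0.76 (SE 0.13, adjusted p = 0.000891 by limma), with 10.6% of tested probe sets more negative, and stayed between -0.85 and -0.65 when single arrays were left out. The brightest Foxo1 probe set, 1416983_s_at, whose suffix marks probes that can match more than 1 transcript or gene, read 7.99, 8.07, 8.20 and 8.07 in WT and 8.04, 8.32 and 8.31 in KLF15-null hearts. Here the groups overlapped, since KLF15-null array 1 fell inside the WT range. The difference was 0.14 (SE 0.11, 95% confidence interval -0.10 to 0.38, adjusted p = 0.300), an interval that does not reach the fall on 1416982_at.

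The third Foxo1 probe set, 1416981_at, read 7.24, 7.32, 7.24 and 7.24 in WT and 7.17, 6.80 and 7.19 in KLF15-null hearts. All KLF15-null values were below all WT values, though 2 of the 3 by less than 0.1. The difference of -0.21 (SE 0.11, 95% confidence interval -0.45 to 0.04) did not pass the threshold (adjusted p = 0.142). The remaining one, 1456529_at, was below the filter level on every array, at 4.82 to 4.93 in WT and 4.97 to 5.0 in KLF15-null hearts. Its difference was 0.09 and had an adjusted p of 0.295 in the limma fit without a filter, in which 35.4% of all 22626 probe sets were called. The gap between 1416983_s_at and 1416982_at grew from 0.36 ± 0.23 (SD over 4 WT arrays) to 1.26 ± 0.29 (SD over 3 KLF15-null arrays), a change of 0.90 with p = 0.0286 by the exact permutation test (0.0476 adjusted over the 5 pairs). The other Foxo1 pairs changed their gap by 0.35 and -0.55, each with an exact p of 0.0571 before and after adjustment. With the mean of the 3 tested probe sets, an alternative added after their disagreement was seen, Foxo1 was lower by 0.28 on the log2 scale (KLF15-null 7.41, WT 7.69, adjusted p = 0.0110).

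Endothelial cells are known to carry much Foxo1, and their markers moved as well. Of 6 endothelial markers 3 were lower (Pecam1 at -2.24, Emcn at -1.44 and Tie1 at -0.77) and 3 did not pass (Kdr at 0.46, Cdh5 at -0.14 and Tek at 0.02). Their summed log2 signal was 10.83 to 11.17 in WT and 10.18 to 10.83 in KLF15-null hearts, so the groups met at 10.83. Their part in the Foxo1 result was not tested.

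Foxo3, the FoxO factor best known for switching on Fbxo32 and autophagy genes in muscle, was higher on its brightest probe set. 1434831_a_at read 8.45, 8.62, 8.79 and 8.86 in WT hearts and 9.0, 9.75 and 9.40 in KLF15-null hearts, so the lowest KLF15-null array lay just above the highest WT array. The difference was 0.70 (SE 0.18, adjusted p = 0.00846 by limma), and 13.3% of tested probe sets had a more positive one. KLF15-null array 2 was the highest, and without it the difference was 0.52 (adjusted p = 0.0187). The next probe set, 1434832_at, read 7.93, 8.26, 8.24 and 8.46 in WT and 7.79, 7.95 and 8.15 in KLF15-null hearts. These values overlapped and leaned the other way, with a difference of -0.26 (SE 0.14, 95% confidence interval -0.58 to 0.06, adjusted p = 0.153).

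The gap between these probe sets of Foxo3 averaged 0.46 ± 0.09 (SD, n = 4) for WT, against 1.42 ± 0.33 (SD, n = 3) without KLF15, a change of 0.96 (exact permutation p = 0.0286, 0.0476 adjusted over the 5 pairs). The annotation pairs both with the same source sequence. The suffix of 1434831_a_at marks probes shared by several transcripts of 1 gene. The remaining Foxo3 probe set, 1450236_at, lay below the filter level on all arrays, at 4.95 to 5.26 in WT and 4.74 to 4.95 in KLF15-null hearts. All 3 KLF15-null values were lower there, with a difference of -0.22 (adjusted p = 0.0818 in the limma fit without a filter). Averaged over the 2 tested probe sets, Foxo3 differed by 0.22 (adjusted p = 0.233), so whether Foxo3 passed the test depended on the probe set used.

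Such disagreement was common in these data. Of 2748 genes with several tested probe sets, 14.4% had all called in 1 direction, 56.4% had some called and some not, and 21.0%, which can also count in that share, had calls in both directions. Fbxo32 belongs to the first class, and Foxo1 and Foxo3 to the class with some called and some not. Calls also went with the probe set's suffix: 60.5% of _x_at probe sets were higher and 7.91% lower, 37.3% and 17.9% of _s_at, 29.9% and 28.5% of _a_at, and 20.5% and 25% of those without such a suffix. Both Fbxo32 probe sets and the lower Foxo1 probe set carry no such suffix, while the higher Foxo3 probe set is an _a_at. Foxo1 1416981_at, which did not pass the threshold, carries no such suffix either.

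**Figure D2:**
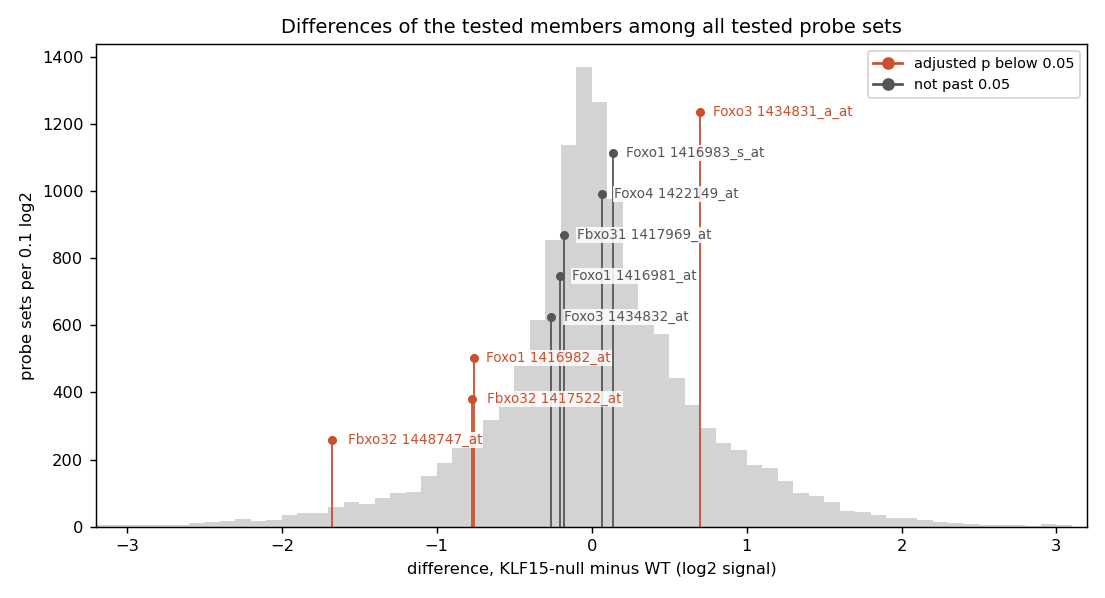
Number of tested probe sets per 0.1 log2 (vertical axis) by difference, KLF15-null minus WT, in log2 signal (horizontal axis, cut at 3.2 on each side), with the 9 tested probe sets of these genes marked at their differences. Orange marks adjusted p below 0.05 and grey marks those not past it. Marker heights only separate the labels. Fbxo32 1448747_at, at -1.67, lies in the lower tail and the 5 uncalled probe sets lie between -0.26 and 0.14.

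Foxo4, another FoxO factor, was dim and did not differ beyond the spread. Its probe set 1422149_at read 6.12, 5.78, 6.15 and 6.08 in WT and 6.05, 6.08 and 6.16 in KLF15-null hearts. The values overlapped, with a difference of 0.06 (SE 0.10, 95% confidence interval -0.16 to 0.29, adjusted p = 0.623 by limma). Fbxo31, which codes for an F-box protein that marks cyclin D1 for breakdown, read 8.06, 8.06, 7.83 and 7.90 in WT and 8.04, 7.23 and 8.08 in KLF15-null hearts. Apart from KLF15-null array 2, the KLF15-null values lay near the top of the WT range. The difference of -0.18 (SE 0.19, 95% confidence interval -0.61 to 0.26, adjusted p = 0.471) turned to 0.10 without that array (adjusted p = 0.432), and neither passed. The same array held the lowest reading of Fbxo32 1417522_at, Foxo1 1416981_at and Fbxo31 and the highest of Foxo3 1434831_a_at.

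**Figure D3:**
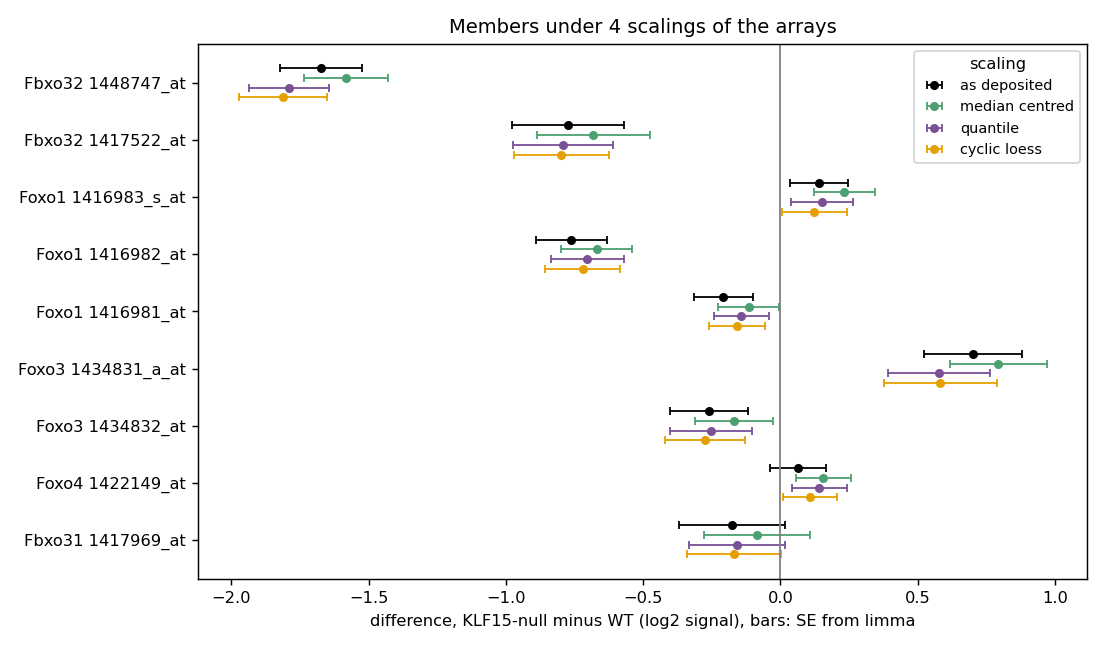
Difference, KLF15-null minus WT, in log2 signal (horizontal axis) of the 9 tested probe sets under the deposited scale, median centring, quantile and cyclic loess normalization. Points are limma estimates and bars their SE. Fbxo32 1448747_at lies between -1.81 and -1.58 and Foxo3 1434831_a_at between 0.58 and 0.79, and no probe set changes side of 0.

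The 5 genes with the probe set whose pattern over the 7 arrays was most like that of Fbxo32 1448747_at had Pearson's r of 0.993 to 0.997. They were Galnt2 (an O-glycosylation enzyme, -1.06), Ccnl2 (cyclin L2, -1.93), Cavin2 (a caveolae protein, -3.23), Hsp90b1 (an endoplasmic reticulum chaperone, -2.62) and P2rx4 (an ATP-gated channel, -1.37). On the Cavin2 probe set the WT arrays read 9.19 to 9.69 and the KLF15-null arrays 5.77 to 6.62. Each of the 5 genes also had a tested probe set that was not lower. For Cavin2 the other one differed by -0.02 (adjusted p = 0.943) and for P2rx4 by 0.08 (adjusted p = 0.509). Galnt2 had further ones at -1.88 and 0.12, Ccnl2 at 1.13 and 0.03, and Hsp90b1 at 0.98. The values rest on 7 arrays in 2 groups, so any strongly lower gene correlates: 587 of the other 13575 tested probe sets (4.32%) had r of at least 0.95.

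The genes around these ligases and factors were taken from 6 lists, each gene being read by its brightest tested probe set. Over all 8404 genes so tested 27.4% were higher and 19.6% lower, with a median difference of 0.02. Bright probe sets as a whole read higher in KLF15-null hearts on the deposited scale: the brightest 10% had a median difference of 0.35, which became 0.01 with quantile and 0.03 with cyclic loess scaling. List values use each gene's brightest tested probe set, so list counts under those scalings are given where they differ. The median over all genes was 0.04 after quantile and 0.02 after cyclic loess normalization, and -0.0005 with each gene's probe sets averaged. Of all 13576 tested probe sets 3690 were higher and 3493 lower after quantile normalization, and 3518 and 3656 after cyclic loess. On the deposited scale they were 3637 and 3235. The first list held the kinases, scaffolds and modifiers upstream of FoxO, of which 23 of 31 were tested, with 10 called higher, 7 called lower and 6 uncalled (median 0.01). After cyclic loess normalization 10 were higher and 8 lower (median -0.07), and after quantile normalization the median was -0.06. With each gene's probe sets averaged, 8 were higher and 10 lower. The Ywha genes code for scaffold proteins that hold phosphorylated FoxO in the cytoplasm. Ywhaz was at 1.81 (SE 0.13), Ywhab at 1.27 (SE 0.13) and Ywhae at 1.07 (SE 0.12), with adjusted p by limma of 5.94e-05 or less. All 6 Ywha genes tested, a group singled out after their values were seen, were called higher on the deposited scale, after median centring and after quantile and cyclic loess normalization. When each gene's probe sets were averaged 5 were higher and 1 lower. Only the probe set read for Ywhah had no suffix: those of Ywhaz and Ywhag were _x_at, of Ywhab and Ywhae _a_at and of Ywhaq _s_at. Ywhaz shows the spread: while 2 of its other probe sets were higher too, at 1.34 and 2.06, a further 2 were lower, at -0.60 and -0.98 (adjusted p = 0.0464 and 0.0155). Ywhab was higher on another probe set, at 0.50 (adjusted p = 0.0448), and did not pass on further ones, at 0.19, 0.31 and -0.39. Ywhae was higher on its others too, at 0.77, 0.97 and 1.52.

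Igf1r, the IGF-1 receptor, was at -0.79 (SE 0.08, adjusted p = 5.08e-05), with its KLF15-null mean of 5.76 at the filter level, and a probe set too dim to test differed by 0.23. The insulin receptor substrates Irs1 and Irs2 were at -0.91 and -0.49 and the PI3-kinase subunit genes Pik3r1 and Pik3ca at -1.54 and -0.48, all called lower under the 4 scalings and named after their values were seen. In the same list Igf1, the receptor's ligand, differed by 0.15 (adjusted p = 0.323) and Pdpk1, the kinase that activates AKT, by 0.01 (adjusted p = 0.962). Akt1 and Akt2, the kinases that phosphorylate FoxO, differed by -0.01 and -0.07 and did not pass on their brightest probe sets (adjusted p = 0.968 and 0.652), while a dimmer one of each was called lower, at -2.67 and -0.92.

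Of 32 FoxO target genes other than the ligases, 29 were tested, with 6 called higher, 6 called lower and 17 uncalled. The median difference was 0.11, and -0.13 and -0.15 after quantile and cyclic loess normalization, where 7 were higher and 12 lower. With each gene's probe sets averaged, 6 were higher and 8 lower. The 4 with the smallest p were all higher: the repressor gene Bcl6 at 1.37 (SE 0.13), the translation inhibitor gene Eif4ebp1 at 1.0, the autophagosome gene Map1lc3b at 1.16 and the growth-arrest gene Gadd45a at 1.15 (SE 0.14). Other probe sets of 3 of these differed from that: Bcl6 was lower by 0.60 on its second, Eif4ebp1 differed by 0.08 on one, and Map1lc3b by -0.57 on one (adjusted p = 0.0516). Gadd45a, also known as a stress-induced gene, has a single probe set and averaged 6.28 ± 0.16 (SD, n = 4) for WT and 7.43 ± 0.30 (SD, n = 3) without KLF15. Pdk4, a fasting-induced kinase gene and FoxO target, averaged 13.16 for WT and 13.29 without KLF15, a difference of 0.13 (adjusted p = 0.413). After cyclic loess normalization it was called lower, at -0.34 (adjusted p = 0.00180), and after quantile normalization it was at -0.13 (adjusted p = 0.188).

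Of 26 other muscle ubiquitin ligases 14 were tested, with 4 called higher, 3 called lower and 7 uncalled (median -0.04). The calls were 3 higher and 5 lower after quantile normalization, 4 and 5 after cyclic loess, and 3 and 5 with each gene's probe sets averaged, where the median was -0.09. Huwe1, a large HECT ligase, was at -1.62 (SE 0.16, adjusted p = 3.39e-05), with a dimmer probe set at 0.20 that did not pass. Fbxo21, an F-box gene known as an atrophy ligase, was lower on both of its probe sets, at -0.73 and -0.61, and Nedd4 was lower on all 3, at -1.12, -1.62 and -2.57. The mitochondrial ligase gene Mul1 was higher at 0.98 on 1 probe set and at -0.35 on another, not past the threshold. Trim54, the MuRF3 gene and a close relative of Trim63, was higher at 0.68 (adjusted p = 0.0104), named after its value was seen. It was at 0.34 after cyclic loess normalization (adjusted p = 0.0486) and no longer past the threshold after quantile normalization, at 0.30 (adjusted p = 0.0912).

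In the list of SCF core and ubiquitin supply genes 15 of 25 were tested, with 8 called higher, 3 called lower and 4 uncalled (median 0.36). With quantile or cyclic loess normalization, or when a gene's probe sets were averaged, 4 were higher and 3 lower, and with that mean the median was -0.01. Cul1, the scaffold that Fbxo32 joins, differed by -0.01 (adjusted p = 0.936), and Skp1, the adaptor between them, was called higher at 0.40 (adjusted p = 0.00922), close to the median of 0.35 over the brightest 10%. Skp1 did not pass after quantile or cyclic loess normalization, at 0.13 and 0.17 (adjusted p = 0.182 and 0.121). The ubiquitin-conjugating enzyme genes split, with Ube2d2a at 1.20 (SE 0.12), Ube2d1 at -1.23 (SE 0.17) and Ube2b, known to be induced in wasting muscle, at -0.97 (SE 0.14). Another probe set of Ube2b differed by -0.09 and did not pass. Uba3, of the NEDD8-activating enzyme, was at 0.88 on its brightest probe set and at -1.84 on another, both past the threshold.

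Myostatin itself was not measured, but 19 of 28 genes of the myostatin, activin and BMP pathway were tested, with 7 called higher, 3 called lower and 9 uncalled (median 0.12, and -0.03 with the mean of each gene's probe sets). Furin, the protease gene that matures myostatin, rose by 1.68 (SE 0.14) and Acvr1b, a type I receptor gene, by 0.88 (SE 0.11). Smad1, a BMP effector, was at 1.46 on its brightest probe set and -0.47 on its other, and Ltbp3, a latency protein gene, at 1.26 and -0.41, each past the threshold in both directions. Acvr2a and Acvr2b, the myostatin receptor genes, each differed by 0.12 and did not pass (adjusted p = 0.385 and 0.317).

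Among 25 reported substrates of these ligases 21 were tested, with 8 called higher, 5 called lower and 8 uncalled. The median was 0.23. After quantile normalization 7 were higher and 7 lower, and after cyclic loess 7 and 12, with a median of -0.26. With each gene's probe sets averaged 3 were higher and 7 lower, with a median of -0.08. Myh7, the β-myosin heavy chain, rose by 2.07 (SE 0.20), and Ppara, a nuclear receptor of fatty acid oxidation, fell by 2.13 (SE 0.21). Cdt1, a replication licensing gene, was at 0.78, with its WT mean of 5.59 below the filter level, so background may limit that value. Jun was at 0.79 on its brightest probe set and -1.56 on the other, both past the threshold. Substrates known for Fbxo32 were called both ways. Eif3f, a translation initiation subunit, was at 0.53 (adjusted p = 0.00430). It was also called higher after median centring, at 0.62 (adjusted p = 0.00213), and after cyclic loess, at 0.24 (adjusted p = 0.0254). After quantile normalization it did not pass, at 0.12 (adjusted p = 0.180). The calcineurin A genes Ppp3ca and Ppp3cb were called in opposite directions, at -0.43 and 0.49 (adjusted p = 0.00666 for each by limma). Troponin I (Tnni3), a known MuRF1 substrate, differed by 0.23 and did not pass (adjusted p = 0.0748). It was called higher after median centring, at 0.32, and lower after cyclic loess, at -0.26.

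**Figure D4:**
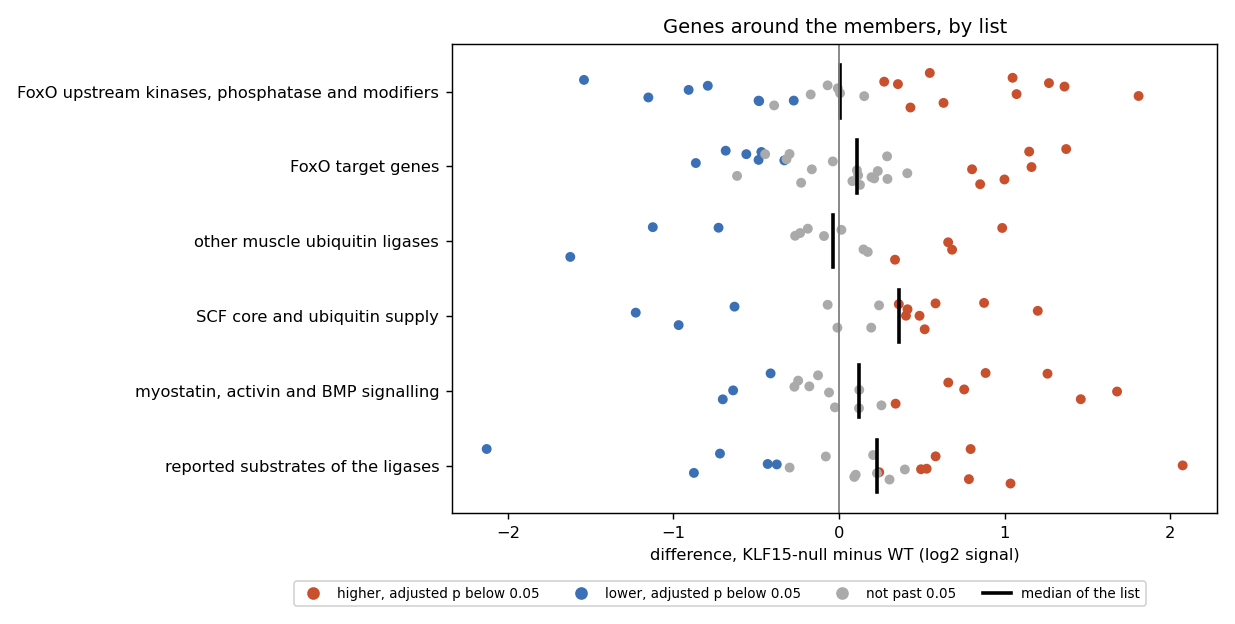
Difference, KLF15-null minus WT, in log2 signal (horizontal axis) of every tested gene in the 6 lists, 1 point per gene on its brightest tested probe set, spread vertically only to separate points. Orange is higher and blue lower at adjusted p below 0.05, grey is not past it, and black bars are list medians. Called genes lie on both sides of 0 in every list.

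Of the 24 genes named by smallest p in these lists, 16 had several tested probe sets, and 7 of those (Bcl6, Jun, Ltbp3, Smad1, Uba3, Ube2d2a and Ywhaz) had another one past the threshold in the opposite direction. Leukocyte markers also differed between the groups, with 4 of 7 tested macrophage and monocyte markers higher and 1 lower, and 2 of 4 neutrophil markers higher. The summed log2 signal of the macrophage and monocyte markers was 11.14 to 11.83 in WT and 11.99 to 12.51 in KLF15-null hearts. For neutrophil markers it was 7.86 to 8.47 in WT and 9.18 to 9.52 in KLF15-null hearts. Fibroblast markers had 1 higher and 2 lower of 7, with a summed log2 signal of 12.46 to 13.33 in WT and 12.20 to 12.43 in KLF15-null hearts. Smooth muscle and pericyte markers had 1 higher and 1 lower of 6, with sums of 12.67 to 13.23 in WT and 13.32 to 13.50 in KLF15-null hearts. Of 2 tested adipocyte markers and 1 erythroid marker 0 were called by limma, 0 of them at an unadjusted p under 0.05. The part of these cell types in the list values was not tested.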

How the data were processed

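RNA of 7 heart samples was hybridised to Affymetrix arrays, 1 sample an array. The table the authors deposited holds a log2 signal for each probe set, as its range of values shows. The submitters' processing notes name GCOS with no version. How signals were summarized and scaled was not stated in any source read here. Medians of the arrays differed by under 0.15, so no scaling was added, although bright probe sets as a whole differ on this scale.

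Symbols came from the platform annotation: 20380 probe sets had 1 symbol, 691 several and 1555 none. Probe sets with a 7-array mean at or above the 40th percentile were fitted with limma 3.58.1 (R 4.3.3), genotype only, with an intensity trend. Gaps between probe sets were tested by exact permutation. Rules for naming were: every member, Klf15, up to 4 called genes of smallest p per list, and the 5 patterns most like Fbxo32. The members and lists were chosen with earlier results of these data known. The fit was tested on simulated data (13576 probe sets, 200 altered): 44% of differences of 0.5, 90% of 1 and 100% of 2 were recovered. Far fewer probe sets were altered there than the 50.6% called here, and the noise was independent, so these shares need not hold for these arrays. Only 7 arrays limit the precision. Alternatives were other filters, scalings, weights, no trend, a replicate block, arrays left out and means of probe sets.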

Additional observations from a re-analysis of the deposited data

Results flagged for a closer look

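Of 41 WT groups of 4 arrays examined, 5 held an array far from the other three by Dixon's ratio of gap to range, where chance gives about 1 in 20. WT array 2 stood apart for Foxo1 1416981_at (7.32 against 7.24 to 7.24, ratio 0.947) and for the dim Foxo1 1456529_at (4.82 against 4.92 to 4.93, ratio 0.973). Both gaps are small on the log2 scale, at about 0.1. WT array 3 was high for Ywhab (10.56 against 10.32 to 10.35, ratio 0.870) and for Ube2d1 (8.41 against 8.09 to 8.14, ratio 0.839). WT array 1 was low for Bcl6 (7.02 against 7.41 to 7.43, ratio 0.948). Groups of 3 arrays were not examined in this way, so KLF15-null array 2 could not be.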

How the results depend on the processing

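The 4 called probe sets among these genes (both of Fbxo32, Foxo1 1416982_at and Foxo3 1434831_a_at) kept their direction and stayed past the threshold without a filter, with a stricter one, under 3 scalings, without the trend, with array weights, with the replicate block and with each array left out. Array weights added 1 more, Foxo1 1416983_s_at at 0.22 (adjusted p = 0.0359). The stricter filter, at the 60th percentile, left Foxo4 untested. When a gene's probe sets were averaged Foxo1 was -0.28 where its brightest probe set had 0.14, and Foxo3 was 0.22, no longer past the threshold. After quantile normalization the gap between Foxo1 1416982_at and 1416981_at changed by -0.56 (exact p = 0.0357 adjusted over the 5 pairs). Over all probe sets 5900 to 7068 were called with 1 array left out, against 6872, and higher calls made up 52.9% of them, but 63.3% after median centring. Replicate numbers did not pair the arrays: same-numbered deviations correlated at -0.11, 0.00 and 0.19, and 1 of 3 KLF15-null arrays correlated best with its own number. With the replicate block 5768 probe sets and the same number of member probe sets, 4, were called. The 24 named list genes, picked for small p in these same data, kept direction and call in all 357 refits run. Each refit reused the same probe set of a gene and took no mean, so it could not show how other probe sets read. List counts moved by over 1.5 times in 7 of 102, among FoxO targets with 12 called, which became 19 after quantile or cyclic loess normalization and 21 with array weights.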
